A study of Mus musculus with 12 samples.

Results

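The transcripts of 9 telomere genes were examined in U2OS cells, a human osteosarcoma line that keeps its telomeres long without telomerase. The genes were ATRX and DAXX, which act as a histone chaperone complex, TERT, the catalytic subunit of telomerase, and the 6 shelterin genes TERF1, TERF2, TERF2IP, POT1, ACD and TINF2. They were chosen by name, with earlier results of these data known. All 9 were found by their full names among the 58735 genes of the deposited table. RNA was sequenced from 12 libraries in 4 groups of 3: blank U2OS cells, U2OS transfected with the siRNA siSRSF1-2 or with siSRSF1-3, and U2OS that overexpress LINC01134, a long non-coding RNA (OE-LINC01134). Both siRNAs target SRSF1, an SR protein that takes part in splicing. The GEO labels name the mouse as the organism and a mouse genome build, but the gene identifiers are human and the paper describes a human line. In the paper's methods, siRNA transfection is described for HOS, another osteosarcoma line, whereas the labels give U2OS. No library came from cells given a control siRNA or an empty vector, so every difference from blank cells holds the effect of delivery together with that of the agent. U2OS is a single line, and nothing in the labels tells whether the replicates came from separate cultures. The supplementary methods speak of fewer biological replicates per condition than the labels list, so the p-values measure the spread between libraries, which may be technical.

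Telomeres end in tandem repeats that shelterin covers. TERF1 and TERF2 bind the double-stranded repeats, POT1 binds the single-stranded overhang, ACD (also called TPP1) holds POT1 to the rest of the complex and recruits telomerase, TINF2 bridges the duplex-binding proteins and ACD, and TERF2IP (RAP1) sits on TERF2. ATRX and DAXX place the histone variant H3.3 at telomeres and other repeats. Tumor cells that lengthen telomeres by recombination, the ALT pathway, often lack ATRX or DAXX protein, and U2OS is widely used as an ALT line that makes no functional ATRX protein. The values here are RNA of a whole gene, so they tell neither which exons were read nor how much protein was made.

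Expression was given as FPKM, which divides the fragments of a gene by its length and by a library factor, so that levels of different genes can be set side by side per length. The order of genes then rests on the listed length, 19266 bases for ATRX and 3084 for DAXX, and how it was set is not stated. Over the 12 libraries ATRX held more reads than DAXX, 36480 against 26495, though its FPKM was lower. Reads per gene were recovered from FPKM and gene length, and genes received 26237763 to 32954539 reads in a library. Each member other than TERT had 398 to 4894 reads in every library. SRSF1 was at 35.9, 19.8 and 20.5 FPKM in the blank libraries, 7.09, 7.46 and 7.41 with siSRSF1-2, 3.33, 6.81 and 7.90 with siSRSF1-3, and 31.8, 29.6 and 30.3 in OE-LINC01134. LINC01134 was at 878 to 1280 FPKM in its overexpression group and at 0.497 to 1.11 elsewhere. Some libraries stood apart from their groups. Over all genes tested, blank replicate 1 correlated best with OE-LINC01134 replicate 2 (r = 0.952), OE-LINC01134 replicate 2 with blank replicate 1, and siSRSF1-3 replicate 3 with siSRSF1-2 replicate 1 (r = 0.96, against 0.861 to 0.922 with its own group). Blank replicates 2 and 3, OE-LINC01134 replicates 1 and 3, and the siSRSF1-2 libraries differed by only 2.13 to 3.2 chi-square units per degree of freedom, whereas the other replicate pairs differed by 63.2 to 316, so the groups differ widely in how much variation their replicates hold. Among 8 mesenchymal markers 6 were above a median of 1 FPKM, while COL1A2 and TWIST1 were near 0. Of 9 markers of other cell types only EPCAM was above it, and the sum of the 9 ran from 3.15 to 3.23 FPKM with siSRSF1-3 and from 1.82 to 2.80 in the other groups. The sum of the 8 mesenchymal markers was 304 to 438 FPKM in blank cells, 161 to 165 with siSRSF1-2, 162 to 272 with siSRSF1-3 and 155 to 378 in OE-LINC01134, so it was lower with either siRNA than in any blank library. The part of these markers in the results was not tested. In bulk RNA, fewer cells of a kind and less RNA per cell cannot be told apart.

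In blank cells the levels fell into steps. DAXX was highest, with a mean of 27.3 FPKM, followed by TERF2IP at 13.9, ACD at 12.7 and TINF2 at 12. The ranges of TERF2IP and TINF2 did not overlap, while ACD overlapped both and could not be placed between them. TERF2 at 5.85 and ATRX at 5.21 FPKM overlapped as well, then came TERF1 at 3.58 and POT1 at 2.86, and TERT was last at 0.0664. The same step between TERF2IP, ACD and TINF2 on the one side and TERF1 and POT1 on the other was seen in every group. Within shelterin, TERF1 and POT1 thus had the lowest levels per length throughout. TERF2, which binds telomeric repeats too, was above both in every group, so low levels were not shared by all of the DNA binders. The order changed in the middle: with siSRSF1-2, ACD at 8.76 FPKM lay below TINF2 and TERF2IP without overlap, and with siSRSF1-3 ATRX at 3.87 FPKM lay among TERF1 and POT1, whose ranges it overlapped.

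**Figure D1:**
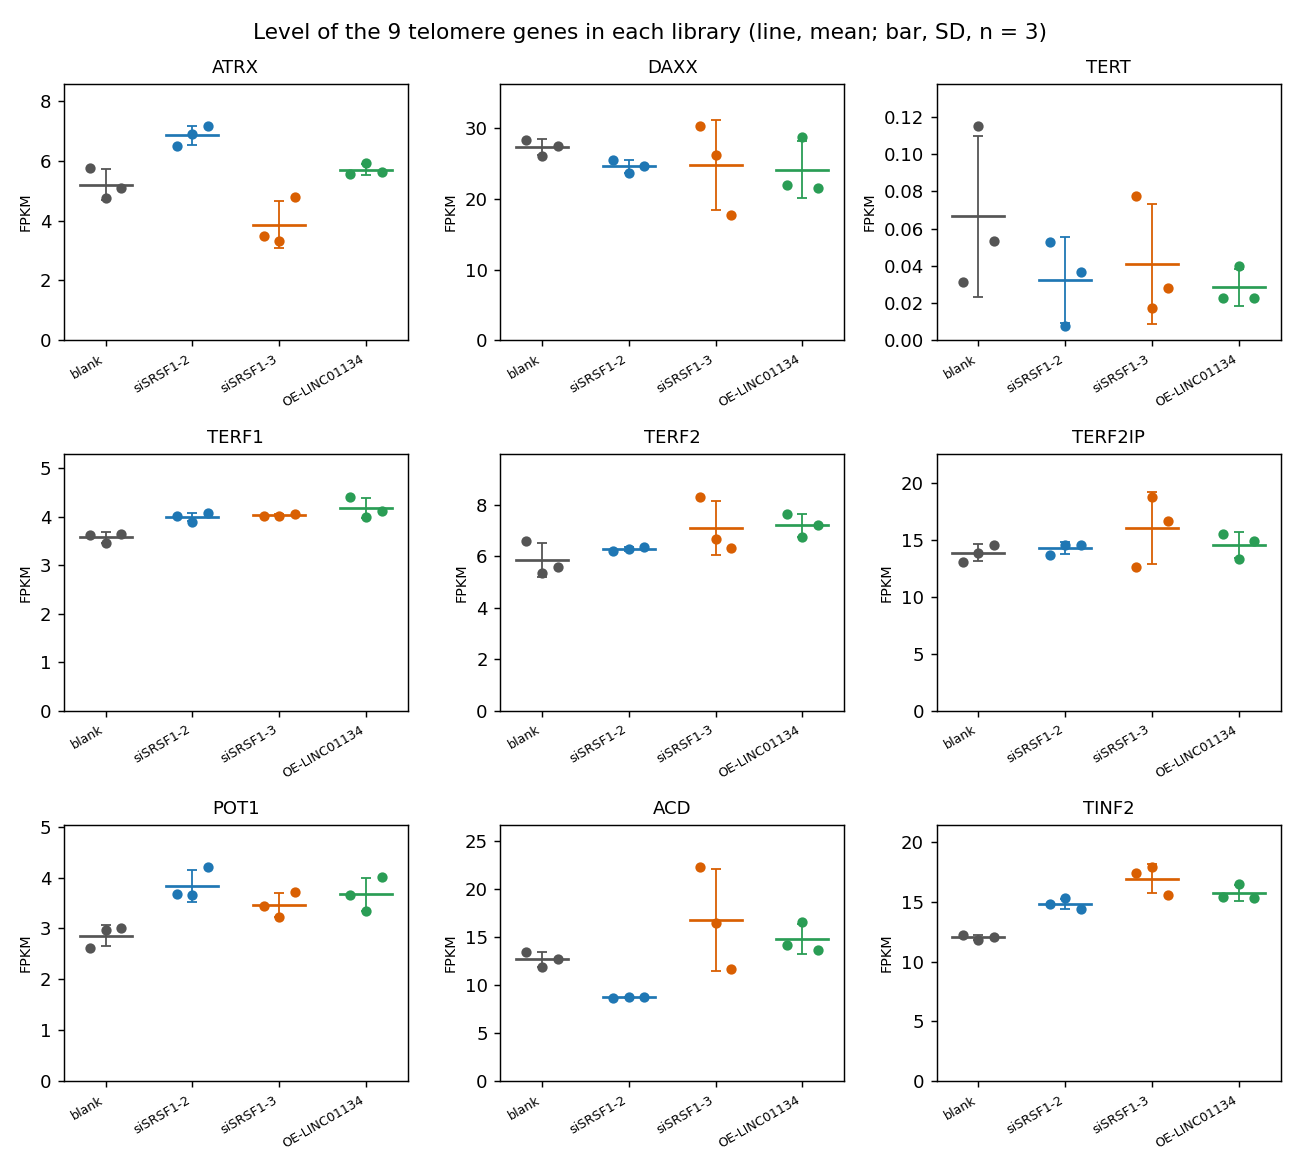
FPKM of the 9 genes (a panel each, own linear axis from 0) in the 12 libraries, with points for libraries in the order of replicates 1 to 3, a line for the mean and bars for the SD of 3 libraries. ACD sits between 8.71 and 8.79 in the siSRSF1-2 libraries, below all others, ATRX is highest with siSRSF1-2 and lowest with siSRSF1-3, and TERT does not pass 0.115 in any library.

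TERT, on chromosome 5 (1253147 to 1295069, minus strand, as listed in the table, whose human genome build is not given in the sources used here), encodes the reverse transcriptase of telomerase. Its reads numbered 4, 15 and 8 in the blank libraries, 7, 1 and 6 with siSRSF1-2, 7, 2 and 4 with siSRSF1-3, and 3, 5 and 3 in OE-LINC01134. The 12 libraries together held 65 reads of it. In 4 libraries the reads were at or under 3, the number that counting error alone allows for a gene counted at 0. Per 100000000 reads on genes TERT had 31.9 reads in blank cells (95% exact Poisson interval 21 to 46.4), 16.1 with siSRSF1-2 (8.83 to 27.1), 15.2 with siSRSF1-3 (8.09 to 26) and 13.5 in OE-LINC01134 (6.75 to 24.2), and these intervals cover counting error only. Blank replicate 2 alone gave 15 of the 27 reads of its group, and the groups overlapped in every comparison. With a mean of 0.042 FPKM over the libraries, TERT was below the minimum of 0.5 FPKM and was not tested across genes. In exact two-sided permutation tests, which cannot give a p under 0.1 for 3 libraries against 3 and so could not have passed 0.05, its p ran from 0.2 to 0.8 over the 4 comparisons. The counting intervals of the groups overlapped too, and a difference in TERT could be neither shown nor excluded with these reads and libraries. TERC, the RNA template of telomerase, is listed under 2 overlapping gene identifiers and at 0 in all libraries. How reads on overlapping genes were counted is not stated. The supplementary methods describe selection of mRNA by poly-T, and whether such libraries hold TERC was not tested. The 0 therefore does not show that TERC RNA was absent.

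Each comparison was fitted by limma to log2(FPKM + 0.1). It took in 17538 genes whose mean reached 0.5 FPKM, the other 8 members among them. The threshold combined a p under 0.05, adjusted over all of them by Benjamini-Hochberg, with a log2 difference of more than 1 in either direction. The comparisons with blank cells share the blank libraries, so they are not independent of each other.

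With siSRSF1-2, ACD fell, and ATRX, POT1 and TINF2 rose, all by less than the fold of 2 that the threshold asks for. Hence 0 of the 8 members passed the threshold, against 4.95% of all genes tested. At an adjusted p under 0.05 with no minimum fold, 4 of 8 were called, against 26.8% of all genes, and in 6 of 8 the FPKM of the groups did not overlap, against 49.5% of all genes. The median log2 difference of the 8 members was 0.13, and that of all genes 0.02. The shares at an adjusted p under 0.05 and without overlap are above the background, in a group whose replicates differed least from each other.

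ACD (chromosome 16, 67657512 to 67660815, minus strand) showed the difference of the smallest adjusted p. It was at 13.5, 11.9 and 12.7 FPKM in blank cells and at 8.71, 8.79 and 8.77 with siSRSF1-2, so every treated library lay below every blank library. The log2 difference was -0.53 (SE 0.0696, limma adjusted p = 0.00471), or 0.694 times the blank level. It kept an adjusted p under 0.05 in 15 of 17 alternative settings. It lost it with a single fit over all 4 groups (0.148). The other setting without it averaged near-identical replicates, which leaves 1 siSRSF1-2 value against 2 blank values and called 0 of all genes, so it says nothing of ACD itself. ACD shares 58 bases with the gene of capping protein regulator and myosin 1 linker 2 on the opposite strand, which had 173 to 508 reads per library, and whether counting used the strand is not stated.

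The partner that ACD holds, POT1 (chromosome 7, 124822386 to 124929983, minus strand), went the other way. It was at 2.62, 2.96 and 3.00 FPKM in blank cells and at 3.67, 3.65 and 4.20 with siSRSF1-2, a log2 difference of 0.41 (SE 0.1, limma adjusted p = 0.0294). TINF2 (chromosome 14, 24239643 to 24242674, minus strand) was at 12.2, 11.8 and 12.1 FPKM in blank cells and at 14.8, 15.3 and 14.4 with siSRSF1-2. All TINF2 values of treated cells thus lay above those of blank cells, with a log2 difference of 0.30 (SE 0.058, limma adjusted p = 0.0147). These calls were less stable than that of ACD: POT1 kept its call in 8 and TINF2 in 10 of 17 alternative settings, and leaving out any siSRSF1-2 library or blank replicate 2 ended both, as leaving out blank replicate 3 did for POT1.

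ATRX (chromosome X, 77504878 to 77786233, minus strand) encodes the chromatin remodeler of the complex with DAXX. Its FPKM was 5.76, 4.75 and 5.11 in blank cells and 6.51, 6.91 and 7.16 with siSRSF1-2. The groups did not overlap, and the log2 difference was 0.40 (SE 0.094, limma adjusted p = 0.0275), with the call kept in 8 of 17 alternative settings and lost without any library other than blank replicate 1. DAXX (chromosome 6, 33318558 to 33323016, minus strand), the chaperone that holds H3.3, was at 28.4, 26.1 and 27.5 FPKM in blank cells and at 25.5, 23.7 and 24.7 with siSRSF1-2. These ranges did not overlap either, but the log2 difference of -0.15 had an adjusted p of 0.13 from limma. DAXX shares 1631 bases of its strand with an unnamed protein-coding gene that had at most 4 reads in a library. If reads on shared bases were counted for neither gene, the level of DAXX would be understated, and the counting rule is not stated.

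The other shelterin genes showed smaller differences with siSRSF1-2. TERF1 (chromosome 8, 73008864 to 73048122, plus strand) was at 3.62, 3.45 and 3.65 FPKM in blank cells and at 4.02, 3.90 and 4.07 with the siRNA, apart but with an adjusted p of 0.158 from limma. TERF2 (chromosome 16, 69355561 to 69408571, minus strand) was at 6.60, 5.35 and 5.60 against 6.23, 6.28 and 6.38 FPKM, and the groups overlapped. Like DAXX, TERF2 shares bases of its strand (746) with an unnamed protein-coding gene, here at 0 reads, so the same limit holds. TERF2IP (chromosome 16, 75647786 to 75761872, plus strand) was at 13.1, 13.9 and 14.6 against 13.7, 14.6 and 14.6 FPKM, with a log2 difference of 0.04 (95% interval -0.13 to 0.21). TERF2IP overlaps 858 bases of the lysyl-tRNA synthetase gene on the opposite strand, which had 3056 to 6934 reads per library against 836 to 1764 for TERF2IP itself. TERF1 has 8 pseudogenes in the table, which together held at most 50 reads per library, or 5.55% of the reads on TERF1.

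**Figure D2:**
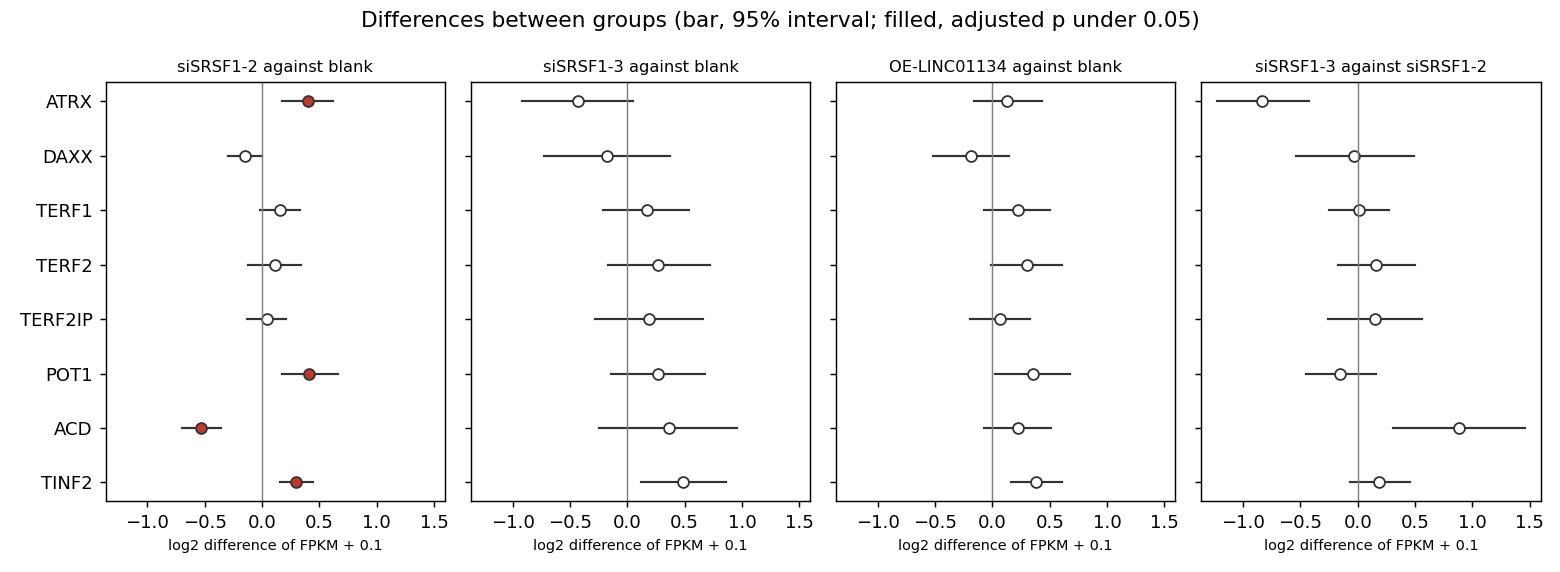
Log2 difference of FPKM + 0.1 (x axis) for the 8 members tested (y axis) in the 4 comparisons, with 95% intervals from limma and filled points for an adjusted p under 0.05. The 4 filled points, ATRX, POT1, ACD and TINF2, all belong to siSRSF1-2 against blank, and ATRX and ACD point in opposite directions in the comparison of the siRNAs.

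With siSRSF1-3 the members were more scattered and none was called. Here 0 of the 8 members passed the threshold, against 1.26% of all genes tested, and 0 had an adjusted p under 0.05, against 1.28%. At an unadjusted p under 0.05 there was 1 member, TINF2, against 28.8% of all genes. The groups did not overlap in 3 of 8 members, against 37.2% of all genes, close to the background. The median log2 difference of the 8 members was 0.23 and that of all genes -0.01, but the latter moved to -0.26 when libraries were scaled by their read totals and to -0.43 when all were given an equal FPKM sum. The library size behind the deposited FPKM was 0.712 times the read total in siSRSF1-3 replicate 1 and 0.888 times in replicate 2, against 0.99 to 1.09 in the other libraries.

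TINF2 was at 17.4, 17.9 and 15.6 FPKM with siSRSF1-3, again above all blank libraries. Its log2 difference from blank cells was 0.49 (SE 0.155, limma adjusted p = 0.113), and it stayed above 0 under both other scalings (0.23 and 0.05). Without siSRSF1-3 replicate 3 it was 0.55 (limma adjusted p = 0.025). POT1 was at 3.44, 3.23 and 3.71 FPKM and TERF1 at 4.02, 4.01 and 4.05, both above the blank libraries as deposited. At an equal FPKM sum POT1 came to -0.16 and TERF1 to -0.27 on the log2 scale, beside a median of -0.43 for all genes, so the direction of either depends on the scaling, while both stayed above the median.

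ATRX was at 3.50, 3.33 and 4.78 FPKM with siSRSF1-3, and the last value reached into the range of the blank libraries. The log2 difference was -0.43 (SE 0.204, limma adjusted p = 0.201), and it was below 0 under every alternative, from -0.86 to -0.33. Without siSRSF1-3 replicate 3, the library nearest to siSRSF1-2, it was -0.59 (limma adjusted p = 0.0371), in a setting where 35.9% of all genes had an adjusted p under 0.05, against 1.28% with all libraries. ACD was at 22.3, 16.5 and 11.7 FPKM, the widest spread of the 8 members tested relative to its mean (CV 31.6%). Its log2 difference was 0.36 (SE 0.254, adjusted p = 0.362 from limma), 0.59 (adjusted p = 0.0495) without replicate 3, and -0.09 at an equal FPKM sum.

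DAXX spread from 30.3 over 26.2 to 17.8 FPKM across the siSRSF1-3 libraries, which held both its highest and its lowest value of all 12. Its log2 difference was -0.18 (SE 0.233, limma adjusted p = 0.621), and without replicate 3 it turned to 0.04. TERF2 at 8.32, 6.69 and 6.32 FPKM and TERF2IP at 12.6, 18.8 and 16.7 overlapped the blank libraries. Their log2 differences of 0.27 and 0.19 turned to -0.17 and -0.25 at an equal FPKM sum, where the median of all genes was -0.43.

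Between the siRNAs, ATRX and ACD differed most. Of the 8 members 0 passed the threshold, against 0.0855% of all genes tested. Likewise 0 had an adjusted p under 0.05, again against 0.0855%, while 2, ATRX and ACD, were under an unadjusted p of 0.05, against 42.1% of all genes. The groups did not overlap in 3 of 8 members (ATRX, ACD and TINF2), against 54.6% of all genes. ATRX was lower with siSRSF1-3 than with siSRSF1-2 by a log2 difference of -0.83 (SE 0.166, 95% interval -1.23 to -0.42, limma adjusted p = 0.0738). ACD was higher by 0.88 (SE 0.236, limma adjusted p = 0.0801).

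Neither direction depended on the scaling. Scaled by read totals, the log2 difference was -1.12 for ATRX and 0.58 for ACD, and scaled to an equal FPKM sum it was -1.39 and 0.31. Without siSRSF1-3 replicate 3 the values were -0.98 for ATRX (limma adjusted p = 0.00154) and 1.12 for ACD (limma adjusted p = 0.00299). In that setting 61.2% of all genes had an adjusted p under 0.05, so the calls turned on 1 library for most genes tested and are not particular to these members. The TINF2 libraries with siSRSF1-3 were above those with siSRSF1-2 as deposited (log2 difference 0.19). Under the other scalings the difference was -0.11 and -0.38, but the median of all genes then moved from -0.02 to -0.31 and -0.57, and TINF2 stayed above that median. For POT1 the log2 difference between the siRNAs was -0.15 (95% interval -0.45 to 0.16), for TERF1 0.01 (-0.25 to 0.27) and for DAXX -0.03 (-0.54 to 0.49). These intervals are wide for DAXX, so equal levels were not shown.

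In cells overexpressing LINC01134 most members were slightly above blank cells, and none was called. Again 0 of 8 passed the threshold, against 0.85% of all genes tested, and 0 had an adjusted p under 0.05, against 1.18%. At an unadjusted p under 0.05 there were 2 of 8, TINF2 and POT1, close to the 26.3% of all genes. In 5 of 8 members (TERF1, TERF2, POT1, ACD and TINF2) every OE-LINC01134 library lay above every blank library, whereas 30.6% of all genes were apart in either direction. The median log2 difference of the 8 members was 0.22, beside 0.05 for all genes. All of the 5 are shelterin genes, and the remaining shelterin gene, TERF2IP, overlapped.

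TINF2 was at 15.4, 16.5 and 15.3 FPKM in OE-LINC01134, a log2 difference of 0.38 from blank cells (SE 0.0964, limma adjusted p = 0.0836), and the adjusted p was 0.0352 without blank replicate 1 and 0.0274 without OE-LINC01134 replicate 2, settings that called 13.9% and 25.5% of all genes. POT1 was at 3.65, 3.35 and 4.01 FPKM (log2 difference 0.35, limma adjusted p = 0.174). TINF2 thus lay above the blank libraries in all 9 libraries of the other groups, but the blank libraries are shared and the scaling matters for siSRSF1-3. TERF2, at 7.67, 6.77 and 7.21 FPKM, TERF1, at 4.41, 4 and 4.12, and ACD, at 14.2, 16.6 and 13.7, had log2 differences of 0.30, 0.22 and 0.22 (limma adjusted p from 0.198 to 0.287). ATRX was at 5.57, 5.92 and 5.64 FPKM and overlapped blank cells. DAXX was at 22, 28.8 and 21.6 FPKM, with replicate 2, the library that correlated best with blank replicate 1, above the blank libraries and the other libraries below them. Without that replicate the log2 difference of DAXX was -0.32 (limma adjusted p = 0.0367) in place of -0.19.

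Ratios of members within a library do not depend on how the library was scaled. Of 5 ratios computed, picked after the values of the members were seen and given as a description, TERF2IP to TERF2 (1.52 to 2.81 over the 12 libraries) and TERF1 to TERF2 (0.483 to 0.652) overlapped between the groups in every comparison. ATRX to DAXX was 0.203, 0.182 and 0.186 in blank cells, 0.255, 0.291 and 0.29 with siSRSF1-2, 0.116, 0.127 and 0.269 with siSRSF1-3, and 0.254, 0.206 and 0.261 in OE-LINC01134. The first 2 siSRSF1-3 libraries had the lowest ratios of all, while the third lay within the range of siSRSF1-2. ACD to POT1 was 5.14, 4.01 and 4.24 in blank cells and 2.37, 2.41 and 2.09 with siSRSF1-2. It was 6.46, 5.11 and 3.14 with siSRSF1-3 and 3.89, 4.95 and 3.41 in OE-LINC01134, so the siSRSF1-2 libraries were the lowest of all 12. TINF2 to ACD was 0.904 to 0.997 in blank cells, 1.64 to 1.74 with siSRSF1-2, 0.783 to 1.33 with siSRSF1-3 and 0.993 to 1.12 in OE-LINC01134. The siSRSF1-2 libraries were again apart from all others, here at the top.

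**Figure D3:**
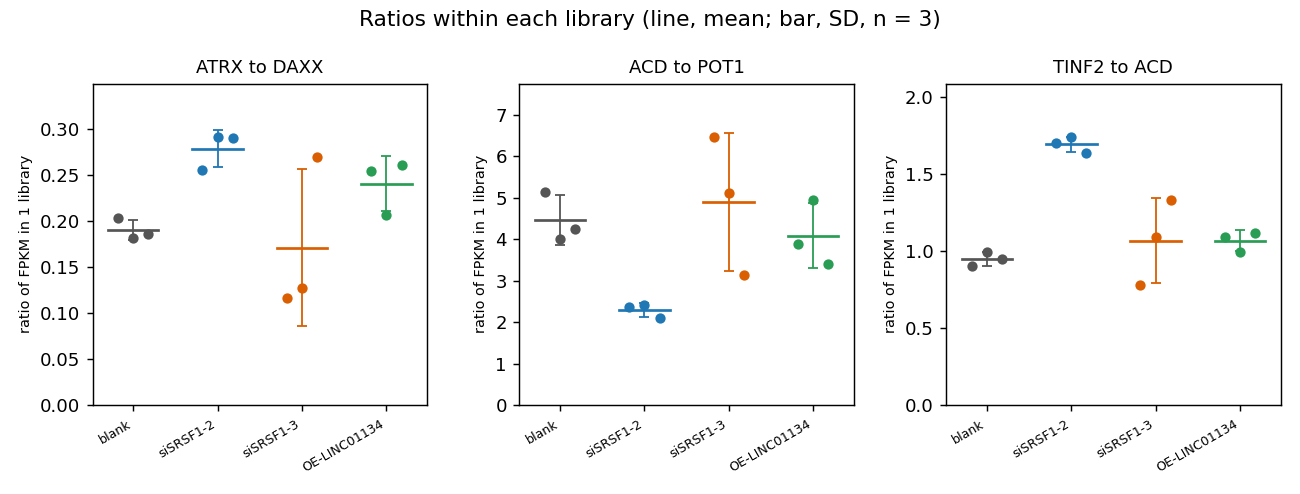
Ratio of FPKM within each library (y axis, linear from 0) for ATRX to DAXX, ACD to POT1 and TINF2 to ACD, by group, with a point per library in the order of replicates 1 to 3, a line for the mean and bars for the SD of 3 libraries. The siSRSF1-2 libraries stand apart for ACD to POT1 (2.09 to 2.41) and TINF2 to ACD (1.64 to 1.74), and siSRSF1-3 replicate 3 (0.269) lies away from replicates 1 and 2 for ATRX to DAXX.

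Other genes of telomere maintenance were taken from a list of 95, in 6 roles, of which 86 were tested. With siSRSF1-2, 1 rose and 2 fell past the threshold, or 3.49% of the 86, below the 4.95% of all genes tested. At an adjusted p under 0.05, 17 were higher and 15 lower, or 37.2% of the 86, beside 26.8% of all genes. PRIM1, the catalytic subunit of the primase that fills in telomere ends, fell from 13, 10.5 and 11.4 FPKM in blank cells to 4.04, 3.67 and 3.83 (log2 difference -1.57, SE 0.0988, limma adjusted p = 0.000951). RMI2, a subunit of the BLM dissolvasome, fell from 6.59, 6.58 and 6.78 to 3.28, 3.15 and 3.21 FPKM (log2 difference -1.03, SE 0.0666, limma adjusted p = 0.001). HMBOX1, also called HOT1, binds double-stranded telomeric repeats. It rose from 5.52, 5.21 and 5.20 to 10.6, 10 and 11.6 FPKM (log2 difference 1.0, SE 0.0794, limma adjusted p = 0.00135), at the edge of the minimum fold.

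By role, the genes of the CST complex and telomere replication, with 6 tested, had the lowest median log2 difference with siSRSF1-2, -0.63, beside 0.02 for all genes. Against the background of 26.8% in either direction, in that role 4 were lower at an adjusted p under 0.05 (PRIM1, PRIM2, POLA2 and STN1) and 1, CTC1, was higher, names that were chosen after their values were seen. PRIM2 and POLA2 belong to the same polymerase alpha and primase complex as PRIM1, and STN1 and CTC1 to CST, which brings that complex to the telomere. Polymerase alpha and primase also serve DNA replication at large, so their levels are not particular to telomeres. Of replication genes in another role, RFC1 (log2 difference -0.50, limma adjusted p = 0.00493), PCNA (-0.79, 0.0612) and POLD1 (-0.59, 0.174) were lower without overlap. POLD3 (0.03) and POLD4 (-0.24) overlapped blank cells. The part of DNA replication in the result was not tested. Of 10 shelterin-associated factors tested 4 were higher and 1 lower, with a median log2 difference of 0.26. Telomerase components and assembly factors, with 11 tested, had 1 higher and 2 lower (median -0.20). In the ATRX-DAXX, H3.3 and heterochromatin role 3 of 18 were higher and 1 lower, among genes of alternative lengthening 4 of 30 were higher and 5 lower, and among regulators of telomeric repeat RNA 4 of 11 were higher and 2 lower. The shares of the telomerase (27.3%), heterochromatin (22.2%) and alternative lengthening (30%) roles were thus near that of all genes.

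With siSRSF1-3, 0 of the 86 passed the threshold or an adjusted p under 0.05 from limma, while an unadjusted p below 0.05 was reached by 8 higher and 19 lower genes, or 31.4%, near the 28.8% of all genes. Without siSRSF1-3 replicate 3, 15 passed the threshold, but so did 23.9% of all genes, and 21 did between the siRNAs, beside 30.6% of all genes. The smallest adjusted p belonged to HNRNPA2B1, an RNA-binding protein that also binds telomeric repeats, at 188, 99 and 101 FPKM in blank cells and 46.6, 50.4 and 58.1 with siSRSF1-3 (log2 difference -1.26, limma adjusted p = 0.0757). DCLRE1B, the Apollo nuclease that TERF2 recruits, had a log2 difference of -0.97 (limma adjusted p = 0.0758). H3-3B, a gene of the H3.3 histone that ATRX and DAXX deposit, was at 121, 148 and 151 FPKM in blank cells and 339, 301 and 225 with siSRSF1-3 (log2 difference 1.03, limma adjusted p = 0.0834). Between the siRNAs 0 of 86 passed either rule, and 15 higher and 24 lower genes had an unadjusted p below 0.05, or 45.3%, near the 42.1% of all genes. RMI2 was at 13.3, 10.3 and 5.89 FPKM with siSRSF1-3, above every siSRSF1-2 library (log2 difference 1.51, limma adjusted p = 0.0725). NBN, which acts in break repair, had a log2 difference of -0.74 (limma adjusted p = 0.0725).

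In OE-LINC01134, HMBOX1 rose to 18.4, 12.3 and 19.8 FPKM (log2 difference from blank cells 1.62, SE 0.19, limma adjusted p = 0.0308). It was the 1 gene of the list past the threshold, or 1.16% of the 86, beside 0.85% of all genes tested. With siSRSF1-3 it was at 6.43, 7.73 and 8.05 FPKM, a log2 difference of 0.47 (limma adjusted p = 0.136). TNKS, the tankyrase that modifies TERF1, was at 3.25, 3.42 and 3.60 FPKM in blank cells and 7.24, 5.55 and 7.22 in OE-LINC01134 (log2 difference 0.93, limma adjusted p = 0.0485). RMI1, another subunit of the dissolvasome, was at 8.44, 7.35 and 8.48 FPKM against 5.24, 4.87 and 4.49 in blank cells (log2 difference 0.72, limma adjusted p = 0.0507). OE-LINC01134 replicate 2 was the lowest of its group for all 3 genes, and still above the blank libraries. With blank replicate 2 or 3 or OE-LINC01134 replicate 1 or 3 left out, 0 genes of the list passed the threshold. In those settings only 0.0057% to 0.0513% of all genes tested passed it, against 0.85% with all libraries.

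**Figure D4:**
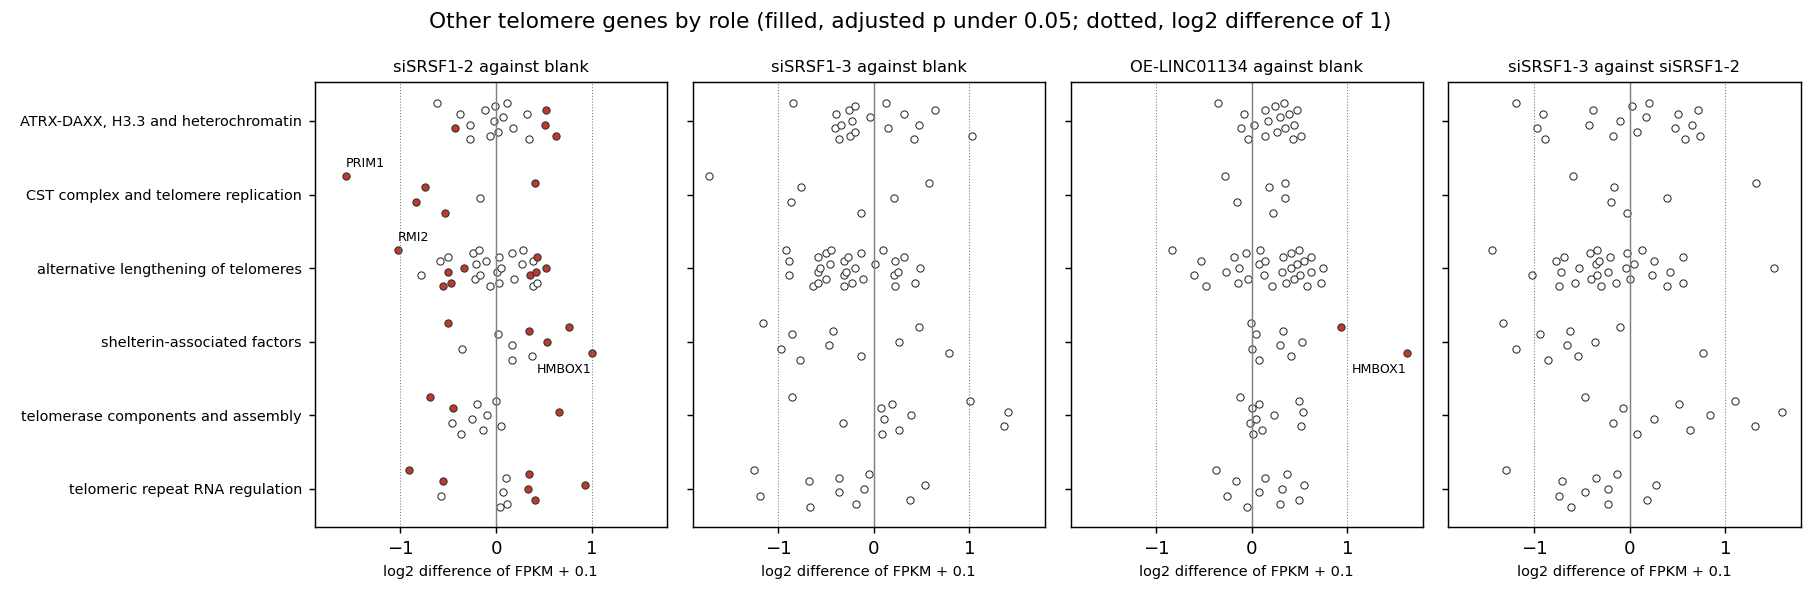
Log2 difference of FPKM + 0.1 (x axis) for the 86 other telomere genes tested, by role (y axis, spread vertically for legibility), in the 4 comparisons, with filled points for an adjusted p under 0.05 and dotted lines at a log2 difference of 1 either way. PRIM1, RMI2 and HMBOX1 are filled and at or past the lines with siSRSF1-2, HMBOX1 in OE-LINC01134, and no point is filled in the comparisons with siSRSF1-3.

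Of the list, 9 genes were below the minimum level and were not tested, TERC among them.

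Across the 12 libraries the members did not move as a set. As a description over libraries that share their group, treatment and scaling, Pearson's r of log2(FPKM + 0.1) ran from -0.76 between ATRX and ACD to 0.76 between TERF1 and POT1, and it was -0.19 between ATRX and DAXX, whose proteins form a complex. The genes most like ATRX over the 12 libraries were the non-coding RNA activated by DNA damage, retinol binding protein 5 and VPS35 (r = 0.98 each), and the most unlike was GABA type A receptor associated protein like 2 (r = -0.98). Those most like DAXX were phosphodiesterase 4A (r = 0.93), peptidylprolyl isomerase C (r = 0.92) and immunoglobulin binding protein 1 (r = 0.91), and serum response factor binding protein 1 was the most unlike (r = -0.91). None of these 8 genes is on the list of telomere genes, but only 86 of the 17538 genes tested are. Their absence therefore says nothing of the members.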

How the data were processed

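RNA-Seq of 12 U2OS libraries was analysed. The file the authors deposited holds FPKM values by gene and library, beside gene lengths and coordinates. The supplementary methods describe poly-T selection, NEBNext libraries, and paired-end sequencing, whereas the labels name a SMARTer kit. The labels list a mouse genome build, which the human gene identifiers contradict. The aligner, the counting program and the human build are not given in the sources used here. FPKM times gene length gave whole reads for 100% of values (tolerance 0.001 reads), which recovered the reads per gene. The library size behind the FPKM was 0.712 to 1.09 times the read total, and how it was set is not stated. Groups came from the labels. The fits used limma 3.58.1 in R 4.3.3 (lmFit, eBayes with a trend) on log2(FPKM + 0.1), with 3 + 3 libraries per comparison, genes of mean FPKM 0.5 or more, and Benjamini-Hochberg adjustment over all 17538 genes. The fit was tested on simulated data whose replicates had an equal spread. The libraries here differ in spread between groups, so that test does not cover the calls made on them. Genes named were the members, the list's genes past the threshold (at most 8 per comparison, otherwise the 3 with the smallest adjusted p), and the genes most like ATRX and DAXX. Of the 3 genes of the list that the rule gave between the siRNAs, 1 is not reported here. The members, lists and tests were chosen with earlier results of these data known. Symbols were matched through full names. No human sequence was used. Alternatives were other pseudocounts, filters, scalings and fits, and the omission of each library. Figures were drawn with matplotlib 3.10.9.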

Additional observations from a re-analysis of the deposited data

Results flagged for a closer look

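ATRX lay on opposite sides of the blank mean with the 2 siRNAs. Its log2 difference from blank cells was 0.40 with siSRSF1-2 (limma adjusted p = 0.0275) and -0.43 with siSRSF1-3 (limma adjusted p = 0.201), and the latter did not pass the test. Every siSRSF1-2 library was above the mean of the blank libraries and every siSRSF1-3 library below it, and the log2 difference of siSRSF1-3 from siSRSF1-2 was -0.83. In the direct limma fit of the siRNAs its adjusted p was 0.0738 with 3 libraries each, and 0.00154 without siSRSF1-3 replicate 3, where 61.2% of all genes had an adjusted p under 0.05. SRSF1 was lower than in blank cells with either siRNA, at 7.32 ± 0.202 FPKM with siSRSF1-2 and 6.01 ± 2.39 FPKM with siSRSF1-3 (SD, n = 3). Its limma adjusted p against blank cells was 0.005 with siSRSF1-2 and 0.0518 with siSRSF1-3, and the latter did not pass 0.05.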

How the results depend on the processing

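The log2 differences of members with siSRSF1-2 and OE-LINC01134 kept their direction in all alternatives run, and so did those of ATRX with siSRSF1-3 in both comparisons, of TINF2 against blank cells, and of POT1 and ACD between the siRNAs. For siSRSF1-3 against blank cells, rescaling FPKM to the same sum turned TERF1 (-0.27), TERF2 (-0.17), TERF2IP (-0.25), POT1 (-0.16) and ACD (-0.09), own read totals turned TERF1 (-0.09) and TERF2IP (-0.07), and leaving out siSRSF1-3 replicate 3 turned DAXX (0.04, in a range from -0.34 to 0.04 without single libraries). Between the siRNAs, the same sum turned TERF1 (-0.55), TERF2 (-0.41), TERF2IP (-0.43) and TINF2 (-0.38), own read totals turned TERF1 (-0.29), TERF2 (-0.14), TERF2IP (-0.16) and TINF2 (-0.11), siSRSF1-2 replicate 2 left out turned TERF1 (-0.01, in a range from -0.01 to 0.02), and siSRSF1-3 replicate 3 left out turned DAXX (0.19, in a range from -0.19 to 0.19). These scalings moved all genes: the median log2 difference went from -0.01 to -0.43 (same sum) and -0.26 (own totals) against blank cells, and from -0.02 to -0.57 and -0.31 between the siRNAs. Every value turned by a scaling lay above the median of that scaling.

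Of the 4 members with an adjusted p under 0.05 with siSRSF1-2, 2 were left with no filter on low values. That setting called 4.75% of all genes, in place of 26.8%. With 1 fit over all 4 groups 0 were left, beside 3.76% of all genes. Averaging near-identical replicates left 1 siSRSF1-2 value, with log2 differences of 0.36 for ATRX, 0.44 for POT1, -0.55 for ACD and 0.29 for TINF2. Without single libraries 1 to 5 members were called, beside 10.4% to 52.2% of all genes. The fit over all groups called 1 member with siSRSF1-3, 1 in OE-LINC01134 and 2 between the siRNAs, where the main number was 0, while it called 27.8%, 6.68% and 32.3% of all genes. Without single libraries 0 to 3 were called with siSRSF1-3, 0 to 2 in OE-LINC01134 and 0 to 3 between the siRNAs, where 0 to 1 also passed the threshold, and the settings with the most member calls called 35.9%, 25.5% and 61.2% of all genes. With no minimum fold the number past the threshold with siSRSF1-2 was 4 members and 32 other telomere genes in place of 3. That rule called 26.8% of all genes. A pseudocount of 1 left 1 of the 3, beside 2.16% of all genes in place of 4.95%. In OE-LINC01134 the 1 other gene became 2 with no minimum fold or the same sum, 0 with no filter, and 0 to 3 without single libraries. Of all genes, 0.0681% passed with no filter and 0.0057% to 8.78% without single libraries. Among the other genes the fit over all groups called 8 with siSRSF1-3 and 11 between the siRNAs, and 0 to 15 and 0 to 21 passed without single libraries, up to 23.9% and 30.6% of all genes.

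Libraries of equal number did not deviate together (r from -0.08 to 0.04), so they share only a number. With the replicate number as a block, 1 member (ACD) kept an adjusted p under 0.05 with siSRSF1-2 in place of 4. That fit called 14.1% of all genes, in place of 26.8%. In OE-LINC01134, 0 other telomere genes passed in place of 1, beside 0.0228% of all genes in place of 0.85%. No replicate pair differed by as little as counting noise, so averaging such pairs could not be run as planned. Averaging pairs under 5 chi-square units per degree of freedom, chosen after seeing the data, took its place, and a lone value was then assumed to vary like the other groups. Depth limits TERT most. The other members had at least 398 reads, so replicate spread and scaling limit them.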

Other observations

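The read totals behind the members give a further view of siSRSF1-3 replicate 1, the library whose scaling differed most. It held 1323 reads of ATRX, the fewest of all libraries, and the fewest of TERF1 (696), TERF2IP (836) and POT1 (398), but 1406 reads of ACD, more than all but 1 of the other libraries.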
